A study of Mus musculus with 43 samples.

Results

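Genes of the vascular endothelial growth factor (VEGF), angiopoietin and hypoxia pathways were followed in bulk RNA sequencing of mouse retina after laser-induced choroidal neovascularization (CNV). They are Vegfa, Kdr, Flt1, Tek, Angpt1, Angpt2, Hif1a, Adm, Egln3 and Vash1, taken by gene symbol from a table of raw read counts. They are 10 of the 54532 genes in that table, and all 10 were among the 18197 genes that passed the filter on low counts. The mice were C57BL/6J, 9 weeks old, and all groups received the laser lesion. The control group (CTR) had the lesion alone, and the SCFA group was given short-chain fatty acids in the drinking water, starting ahead of the lesion and lasting to collection. The water held 67.5 mM sodium acetate with sodium butyrate and sodium propionate, whose molar and gram amounts in the labels do not match. Retinas of females and males were taken 3, 7 or 14 days after the laser (dpl), which gave 12 groups of 3 to 5 libraries, 43 in all, with 19 control and 24 SCFA libraries. Each library was a pool of 2 retinas from different animals of a group, and treatment was read from the sample titles because the treatment field reads control throughout. No group without the lesion was analysed here, so a comparison shows SCFA against control, one day against another, or males against females after the lesion, never lesion against no lesion.

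VEGF-A is secreted by hypoxic cells and drives the sprouting of endothelial cells through the receptor VEGFR2, encoded by Kdr. VEGFR1, encoded by Flt1, binds the same ligand tightly and in its soluble form acts as a decoy. Angiopoietin 1 stabilizes vessels through the receptor Tie2, encoded by Tek, whereas angiopoietin 2 competes for that receptor and loosens vessels during remodelling. HIF-1α, encoded by Hif1a, is controlled mainly at the level of protein breakdown. Prolyl hydroxylases, of which Egln3 encodes one, mark it for degradation when oxygen is present, and Vegfa, Adm and Egln3 are themselves targets of HIF. Adm encodes adrenomedullin, a vasodilator peptide that also protects vessel integrity, and Vash1 encodes vasohibin 1, an inhibitor of angiogenesis that acts on tubulin.

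The libraries held 14826957 to 21507527 counted reads, and values are given as CPM, the deposited counts relative to library size after TMM scaling. Of the 22 female libraries, 1, control replicate 2 at 7 dpl, held Y-linked transcripts at 4.20 to 16.0 CPM. Summed myelin markers reached 248.8 and 851.5 CPM in male control replicates 2 and 3 at 7 dpl and 640.1 CPM in male SCFA replicate 2 at 7 dpl, against a median of 30.15 CPM over all libraries. Summed lens crystallin and filament markers reached 228400 CPM in female SCFA replicate 2 at 3 dpl, against a median of 34.18 CPM. All 12 endothelial markers were detected in every library, and their sum ran from 69.45 to 129.7 CPM. In bulk retina, fewer cells of a type and less RNA per cell cannot be told apart.

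The table also fell into a first run of 31 columns and a second run of 12 columns, named here only by column order because no label says what they are. The second run held 4 of the 19 control libraries (2 of 3 female controls at 14 dpl and 2 of 4 male controls at 3 dpl). It held 8 of the 24 SCFA libraries, spread over 5 groups. Every test below was edgeR's quasi-likelihood test, fitted over all 43 libraries with terms for group and for run, and a gene was called at a Benjamini-Hochberg adjusted p under 0.1 over all genes tested. Where groups are said not to overlap, the share of all genes that did so is not given. Such statements describe the values and are not a result about the members.

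Hif1a was the most abundant of the 10 genes per length. It ran from 361.0 to 620.7 CPM over the 43 libraries. Per kilobase of merged exon its level was 83.8 ± 10.3 CPM (SD, n = 43 libraries), followed by Vegfa at 21.5 ± 3.19, Kdr at 9.97 ± 3.39 and Flt1 at 6.11 ± 1.29. Below these stood Vash1 at 3.18 ± 2.12, Tek at 1.48 ± 0.345, Egln3 at 1.45 ± 0.389 and Angpt2 at 0.951 ± 0.282 CPM per kilobase. Adm at 0.433 ± 0.209 and Angpt1 at 0.168 ± 0.0591 CPM per kilobase were the lowest. The lowest Hif1a library (61.2 CPM per kilobase) lay above the highest Vegfa library (29.0), whereas the ranges of all other neighbours in this order overlapped, and Tek and Egln3 differed by less than 1 SD. The order was the same when the longest transcript replaced merged exons.

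The low genes rested on few reads. Adm was counted 2 to 27 times and Angpt1 5 to 29 times per library, and Adm was at 3 counts or fewer in 2 libraries, female control replicate 3 at 7 dpl and female control replicate 1 at 14 dpl. Angpt2 had 20 to 100 counts, Egln3 23 to 117, Vash1 44 to 486 and Tek 72 to 232, whereas Hif1a had 6223 to 11175. Intervals and floors of this kind cover counting error only.

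Positions are given on GRCm38 with the gene identifiers of the count table. VEGF-A is encoded by Vegfa (ENSMUSG00000023951, chr17:46016993-46032369, minus strand), and its receptors by Kdr (ENSMUSG00000062960, chr5:75932827-75978458, minus) and Flt1 (ENSMUSG00000029648, chr5:147561604-147726011, minus). The Tie2 system comprised Tek (ENSMUSG00000006386, chr4:94739289-94874976, plus), Angpt1 (ENSMUSG00000022309, chr15:42424723-42676977, minus) and Angpt2 (ENSMUSG00000031465, chr8:18690263-18741562, minus). The hypoxia genes were Hif1a (ENSMUSG00000021109, chr12:73901375-73947530, plus), Adm (ENSMUSG00000030790, chr7:110627661-110629820, plus) and Egln3 (ENSMUSG00000035105, chr12:54178981-54203860, minus), and Vash1 lies at chr12:86678700-86692091 (ENSMUSG00000021256, plus). Angpt2 lies inside Mcph1 on the other strand, which had a median of 2.98 CPM, close to that of Angpt2 itself (3.25 CPM), and Hif1a overlaps the antisense gene Gm15283 (median 3.10 CPM). The sources used here do not state whether counting used strand, so reads of such partners may not be told apart and Angpt2 is uncertain in this respect.

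**Figure D1:**
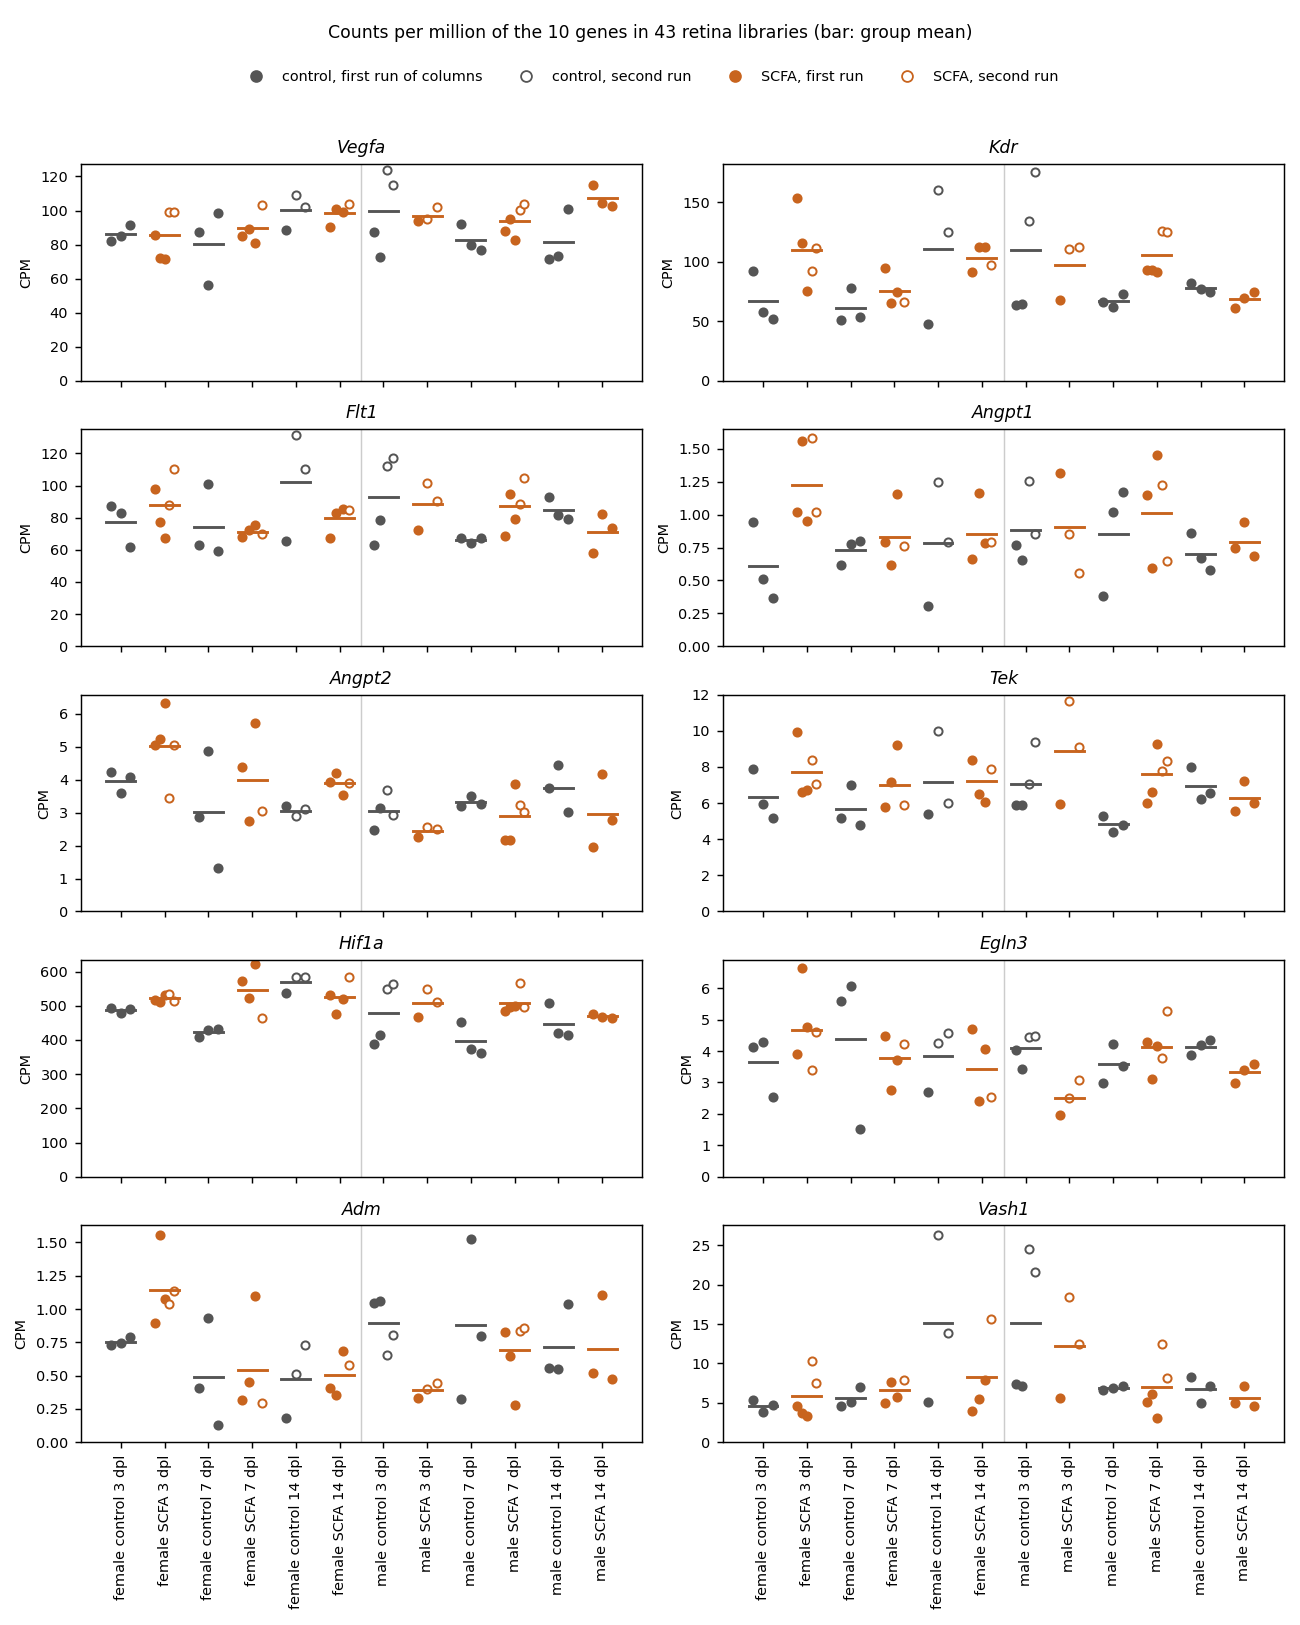
CPM (y axis, linear, from 0) of each gene in the 12 groups of sex, treatment and day (x axis). Points are libraries, open points mark second-run libraries and bars are group means. Vash1 stood between 3.04 and 8.32 CPM in all first-run libraries and reached 26.36 CPM in the second run.

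All members but Angpt1 and Angpt2 had a RefSeq promoter window, 9 windows over 8 genes on GRCm38.p6. Kdr, Flt1 and Tek, whose levels moved together between libraries as described further on, are shown from base 110 to base 11 before the start, 5′ to 3′ on the strand of the gene. Capitals mark GGAA, the core bound by ETS factors of endothelial cells, or its reverse complement TTCC. The windows were chr5:75978466-75978565 for Kdr (minus strand), chr5:147726022-147726121 for Flt1 (minus strand) and chr4:94739179-94739278 for Tek (plus strand).
Kdr: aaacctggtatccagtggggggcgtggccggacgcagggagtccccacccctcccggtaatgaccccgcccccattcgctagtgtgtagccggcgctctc
Flt1: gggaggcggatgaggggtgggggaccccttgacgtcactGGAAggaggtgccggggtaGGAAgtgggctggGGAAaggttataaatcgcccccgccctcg
Tek: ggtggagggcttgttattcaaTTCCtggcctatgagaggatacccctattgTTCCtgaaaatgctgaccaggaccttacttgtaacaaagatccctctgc
The printed stretch held 3 matches for Flt1, 2 for Tek and 0 for Kdr. Over the whole 250 bases before the start, Flt1 and Kdr each had 4 matches, a number that 33.4% of all 32851 windows reached, and Tek had 2, a number that 76.8% reached.

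The core of the hypoxia response element, ACGTG or its reverse complement CACGT, was searched in the same 250 bases, where 16.6% of all windows held it. It was found in 3 of the 9 member windows. The Egln3 match lay 229 bases before the start at chr12:54204069-54204124 (minus strand). Hif1a held 3 matches in chr12:73907702-73907831 (plus strand), 2 of which overlap as both strands of CACGTG, and 1.22% of all windows held 3 or more. The third window, the second of 2 for Vegfa, overlaps a coding exon and is not shown. Capitals mark the match.
Egln3: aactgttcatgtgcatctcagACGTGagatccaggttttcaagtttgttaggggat
Hif1a: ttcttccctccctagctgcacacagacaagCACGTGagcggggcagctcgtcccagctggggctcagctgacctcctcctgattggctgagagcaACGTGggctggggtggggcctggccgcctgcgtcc
Adm, Vash1, Kdr, Flt1, Tek and the upstream Vegfa window held none of these letters in this span. Nothing was measured at these promoters, and a match is a description of the sequence.

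SCFA against control asks whether drinking SCFA changed the retina after the lesion. In the mean over the 6 sex and day groups, Hif1a rose slightly, Tek rose and Vash1 fell. The other 7 members were not called, and Vegfa, the ligand, differed by 0.07 ± 0.05 (log2 fold change ± SE, adjusted p = 0.337). The 3 calls among 10 members stand beside 34.7% of all genes tested in this comparison, so the members were called about as often as genes at large. The median log2 fold change was 0.06 over the members and 0.003 over all genes.

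Hif1a was higher with SCFA at 7 dpl in both sexes, and the difference was called in males. The male control libraries at 7 dpl read 452.8, 374.3 and 361.0 CPM, and the SCFA libraries 483.7, 495.9, 499.9, 566.9 and 496.4 CPM. All SCFA libraries lay above all control libraries. The log2 fold change was 0.31 ± 0.11 (adjusted p = 0.0457). Females at 7 dpl also did not overlap, with controls at 409.3, 428.2 and 431.6 CPM and SCFA libraries at 572.6, 522.9, 620.7 and 463.6 CPM, and a log2 fold change of 0.34 ± 0.11 that was not called (adjusted p = 0.141, or 0.0529 with DESeq2). Without female control replicate 3 its adjusted p was 0.0907, and without female SCFA replicate 4, the second-run library, it was 0.0550. Over all 43 single omissions the log2 fold change ran from 0.26 to 0.44, with adjusted p up to 0.55. At 3 and 14 dpl the Hif1a differences were 0.05 and -0.06 in females and 0.08 and 0.07 in males. The mean over all groups was 0.13 ± 0.05 (adjusted p = 0.0292).

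The low male controls at 7 dpl were the libraries that held myelin transcripts. Without male control replicate 2 the 7 dpl difference of Hif1a was 0.27 (adjusted p = 0.181), and without replicate 3 it was 0.25 (adjusted p = 0.233). The libraries that stood apart were 5, the female control with Y-linked transcripts, the 3 male libraries with myelin and the female SCFA library with lens transcripts. Without all 5, Hif1a differed by 0.10 in males at 7 dpl (adjusted p = 0.778, with 1 control library left and assumed to vary like the others) and by 0.09 in the mean (adjusted p = 0.220). The part of myelin in the Hif1a difference was not tested.

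Tek, the angiopoietin receptor, read 5.275, 4.405 and 4.792 CPM in the male controls at 7 dpl and 6.012, 6.599, 9.266, 7.785 and 8.318 CPM in the SCFA libraries. The groups did not overlap. The log2 fold change was 0.56 ± 0.22 (adjusted p = 0.0777), and in the mean over groups it was 0.21 ± 0.09 (adjusted p = 0.0736). Hif1a and Tek were the 2 of 10 members called in males at 7 dpl, where 22.2% of all genes were called. Leaving out the 3 controls that held Y-linked or myelin transcripts, or all 5 libraries that stood apart, left 1 male control library at 7 dpl. No share of genes called is therefore given for those fits. The 7 dpl call of Tek was lost without male SCFA replicate 3 (0.43, adjusted p = 0.248) and without male control replicate 1 (0.62, 0.105), 2 (0.49, 0.229) or 3 (0.55, 0.192). Without the 5 libraries that stood apart it was 0.45 (adjusted p = 0.495), and the mean was 0.22 (adjusted p = 0.127).

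The mean Tek call was also lost on leaving out any of 15 single libraries, with adjusted p up to 0.137 and log2 fold changes from 0.18 to 0.26 over all 43 omissions. These were female controls 2 and 3 at 3 dpl, 1 and 3 at 7 dpl and 1 and 3 at 14 dpl, male controls 2 at 7 dpl and 2 and 3 at 14 dpl, female SCFA 1 at 3 dpl, 3 at 7 dpl and 1 at 14 dpl, and male SCFA 2 at 3 dpl, 3 at 7 dpl and 2 at 14 dpl.

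Vegfa itself stood apart in males at 14 dpl. The controls read 71.58, 73.08 and 100.7 CPM and the SCFA libraries 115.1, 104.6 and 102.5 CPM. The groups did not overlap, but control replicate 3 lay close to the lowest SCFA library. The log2 fold change was 0.39 ± 0.14, and its adjusted p of 0.1003 fell just above the threshold, in a comparison where 7.13% of all genes were called. DESeq2 gave an adjusted p of 0.0596 and edgeR on these 6 libraries alone gave 0.0562. Leaving out any of 9 libraries brought it under the threshold. These were female controls 2 and 3 and female SCFA 3 at 7 dpl, male SCFA 2 and 3 at 7 dpl, female SCFA 2 and male controls 2 and 4 at 3 dpl, and male control 3 at 14 dpl. The adjusted p was lowest, 0.0408, without the female control with Y-linked transcripts, which had the lowest Vegfa of all libraries (56.32 CPM). Without male control replicate 3 the difference was 0.57 (adjusted p = 0.0644). Over all 43 single omissions the log2 fold change ran from 0.31 to 0.57, with adjusted p up to 0.392. In females at 14 dpl the Vegfa difference was 0.10 ± 0.13.

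Kdr, which carries most VEGF signalling in endothelium, and Flt1 were not called in any of the 7 SCFA comparisons. In males at 7 dpl, where 22.2% of all genes were called, both were higher in every SCFA library than in every control. Kdr read 66.07, 62.07 and 72.68 CPM in the controls and 92.61, 92.63, 91.07, 125.5 and 125.0 CPM with SCFA, a log2 fold change of 0.45 ± 0.26 (adjusted p = 0.244). Flt1 read 67.05, 63.94 and 67.62 CPM in the controls and 68.31, 94.61, 79.25, 88.69 and 104.6 CPM with SCFA, a log2 fold change of 0.24 ± 0.17 (adjusted p = 0.352). In females at 3 dpl Kdr differed by 0.54 ± 0.26 (adjusted p = 0.211, against 8.11% of genes called), with controls at 91.82, 58.04 and 52.17 CPM and SCFA libraries from 75.10 to 153.7 CPM. Summed markers of Müller glia and astrocytes stood at 6844 to 7766 CPM in the 3 first-run SCFA libraries of that group, against a median of 4469 CPM over all libraries, and their part in the Kdr values was not tested.

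The angiopoietins and the hypoxia targets were not called in any SCFA comparison. Angpt1 differed by 0.96 ± 0.42 in females at 3 dpl (adjusted p = 0.169), with controls at 0.941, 0.514 and 0.365 CPM below all SCFA libraries, the lowest of which read 0.950 CPM. Angpt2 differences ran from -0.33 to 0.39 over the 6 groups. Adm differed by 0.55 ± 0.48 in females at 3 dpl and by -1.20 ± 0.52 in males at 3 dpl (adjusted p = 0.403), where controls read 1.048, 1.063, 0.655 and 0.805 CPM and SCFA libraries 0.329, 0.402 and 0.446 CPM, at 7 and 8 counts each. Egln3 in the same males read 4.028, 3.443, 4.434 and 4.477 CPM in controls and 1.976, 2.509 and 3.063 CPM with SCFA, a difference of -0.72 ± 0.30 (adjusted p = 0.386, against 0.022% of genes called). In these males the groups did not overlap for Adm or Egln3, nor for Adm in the females at 3 dpl, and none of these differences passed the test. In the mean over groups Egln3 differed by -0.16 ± 0.12 (adjusted p = 0.356) and, of the single libraries left out, was called without female control replicate 3 at 7 dpl (-0.22, adjusted p = 0.0938). Other single omissions gave adjusted p up to 0.541 for this mean. No member was called in females at 7 dpl, where 0.643% of genes were called, or at 14 dpl, where 0 of 18197 were called by edgeR, with 529 at an unadjusted p under 0.05 and 1 called by DESeq2. That count depended on the libraries and on the run term. With only the libraries named in the study's gene lists and no run term, 17.7% of the genes tested were called in females at 14 dpl, and those libraries were 2 second-run controls and 3 first-run SCFA libraries, so that run and treatment cannot be told apart. Vash1 (-1.78, adjusted p = 0.0536) and Flt1 (-0.61, adjusted p = 0.0594) were then called in that group. In males at 7 dpl the same choice, with first-run controls and 2 of 3 SCFA libraries from the second run, called Kdr (0.78, adjusted p = 0.0158), Flt1 (0.54, adjusted p = 0.0158) and Vegfa (0.28, adjusted p = 0.0927) beside Hif1a and Tek, and in males at 14 dpl it called Vegfa. The share of all genes called in those male fits is not given, so these calls are not a result about the members. In the main fit it was 22.2% at 7 dpl and 7.13% at 14 dpl.

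Vash1, the angiogenesis inhibitor, differed by -0.33 ± 0.11 in the mean over groups (adjusted p = 0.0255), the smallest adjusted p of any member in the SCFA comparisons. This value was tied to the run of columns. First-run libraries read 3.83 to 8.32 CPM in controls and 3.04 to 7.94 CPM with SCFA, which overlapped almost throughout. Second-run libraries read 13.91 to 26.36 CPM in the 4 controls and 7.56 to 18.47 CPM in the 8 SCFA libraries. Within the first run alone the mean difference was -0.18 (adjusted p = 0.358), and without a run term it was -0.14 (adjusted p = 0.678). In females at 14 dpl the controls read 5.05 CPM in the first run and 26.36 and 13.91 CPM in the second, and the SCFA libraries 3.99, 5.54 and 7.94 CPM in the first and 15.69 CPM in the second. The fitted difference there was -0.27 ± 0.27 (adjusted p = 1.0), and it was 0.22 in the first run alone (adjusted p = 0.955). In males at 7 dpl, where all 3 controls were first-run libraries and 2 of 5 SCFA libraries were not, the controls read 6.63, 6.89 and 7.14 CPM the first-run SCFA libraries 5.12, 6.15 and 3.04 CPM, and the second-run SCFA libraries 12.46 and 8.10 CPM, above every control. The group means over both runs were 6.89 CPM in controls and 6.97 CPM with SCFA. Within the first run they were 6.89 CPM in controls and 4.77 CPM with SCFA. The fitted difference, which takes the run into account, was -0.61 ± 0.27. It was not called (adjusted p = 0.116), but was on leaving out female SCFA 2 or 4 or male SCFA 2 at 7 dpl, with adjusted p down to 0.0491. Over all 43 single omissions the log2 fold change ran from -0.76 to -0.49, with adjusted p up to 0.285.

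The second run differed from the first for 6 of the 10 members, beside 52.0% of all genes tested. Vash1 was higher in it by 1.31 ± 0.14 (adjusted p = 1.79e-08), Kdr by 0.46 ± 0.14, Flt1 by 0.37 ± 0.09, Vegfa by 0.29 ± 0.07, Tek by 0.23 ± 0.12 and Hif1a by 0.12 ± 0.06. Egln3, Adm, Angpt1 and Angpt2 were not called. The share of reads from mitochondrial messenger RNA was 4.71% to 14.8% in the first run and 2.50% to 4.57% in the second. The summed pigment epithelium and choroid markers had a median of 382.9 CPM in first-run and 125.9 CPM in second-run control libraries. In the second run 6 of 12 endothelial markers were called higher. Of all 18197 genes tested, 4671 were called higher in it and 4800 lower. The part of mitochondrial, pigment epithelium and endothelial RNA in the run difference was not tested.

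The run difference was not the same in both treatments. In a fit chosen after the data were seen, with a run term for each treatment, 7 members were called in control libraries (45.9% of genes) and 3 in SCFA libraries (41.8% of genes). Kdr was higher in the second run by 1.39 ± 0.21 in controls and by 0.12 ± 0.12 with SCFA, a difference of -1.28 (adjusted p = 0.00135). Flt1 was higher by 0.77 ± 0.16 in controls and 0.22 ± 0.10 with SCFA, a difference of -0.55 (adjusted p = 0.0394). These 2 of 10 members stand beside 22.3% of all genes called for that difference.

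The Kdr values can be set side by side within groups. In males at 3 dpl the second-run controls read 134.2 and 175.7 CPM and the second-run SCFA libraries 110.7 and 112.1 CPM, while the first-run controls read 63.29 and 64.56 CPM and the first-run SCFA library 67.92 CPM. In females at 14 dpl the second-run controls read 160.2 and 124.5 CPM and the single second-run SCFA library 97.05 CPM, while the first-run control read 47.88 CPM and the first-run SCFA libraries 91.37, 112.5 and 112.6 CPM. Controls were lower than SCFA libraries in the first run and higher in the second in both of these groups, the only groups with second-run libraries of both treatments.

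**Figure D2:**
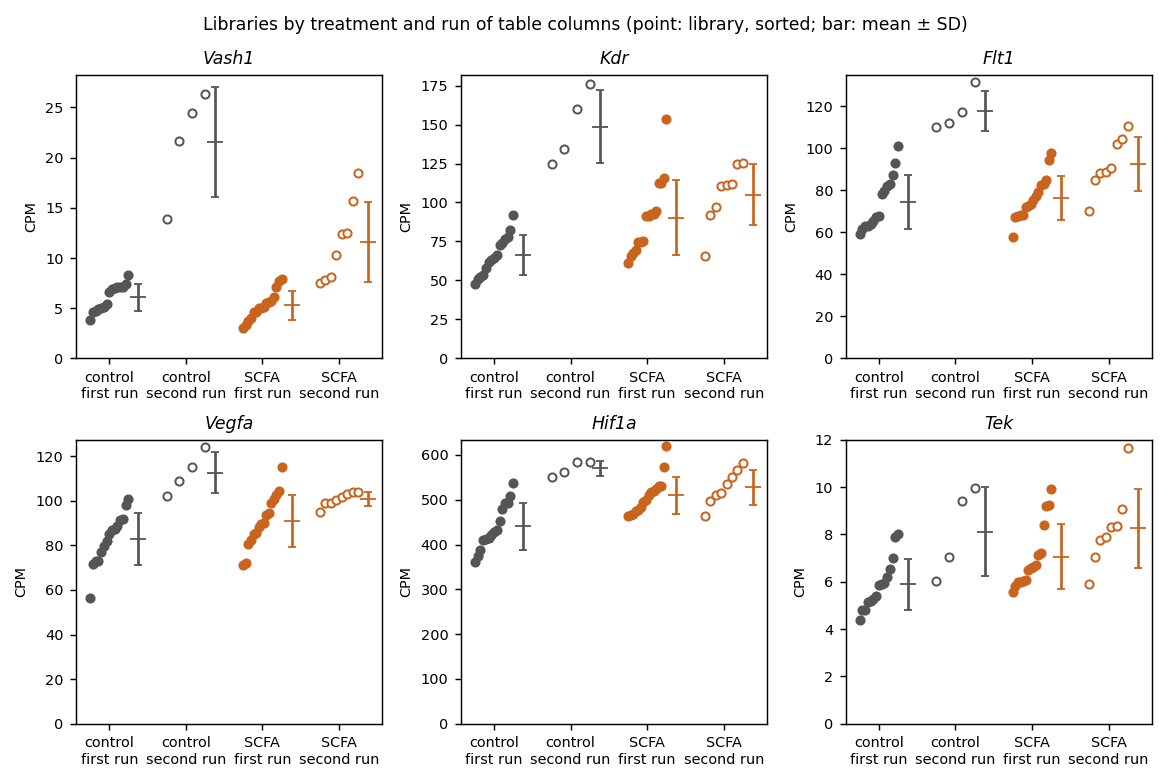
CPM (y axis, linear, from 0) of 6 genes by treatment and run (x axis), sorted by value; points are libraries and bars are mean ± SD. The 4 second-run controls stand above every first-run control for Vash1, Kdr, Flt1, Vegfa and Hif1a, and for Vash1 all second-run controls but 1 exceed all other libraries.

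Taking the run within each treatment changed which members were called in the SCFA mean. Kdr was then higher with SCFA by 0.48 (adjusted p = 0.000324) and Angpt1 by 0.55 (adjusted p = 0.0282), Hif1a and Tek stayed called, and Vash1 was no longer called (-0.16, adjusted p = 0.367). The first run alone gave 0.44 for Kdr (adjusted p = 0.00236) and 0.66 for Angpt1 (adjusted p = 0.0257). The share of all genes called in the mean under these fits is not given, and it was 34.7% with the run as a block. The calls are therefore not a result about the members. First-run control libraries had a mean Kdr of 66.2 ± 12.8 CPM (SD, n = 15) and first-run SCFA libraries 90.3 ± 24.2 CPM (SD, n = 16). Their ranges, 47.88 to 91.82 and 61.07 to 153.7 CPM, overlapped.

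**Figure D3:**
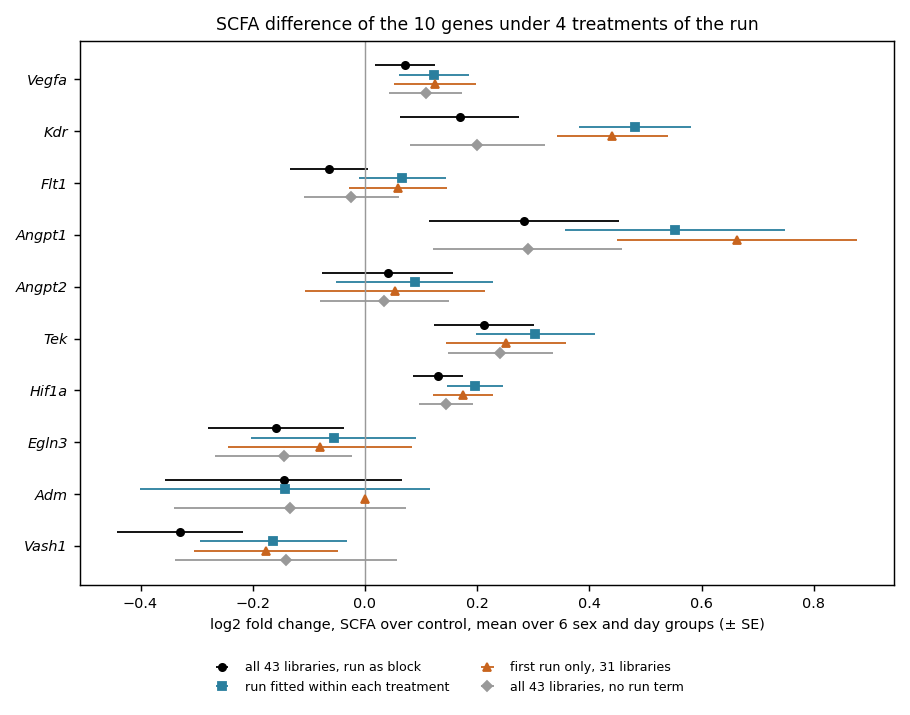
Log2 fold change of SCFA over control (x axis, mean over 6 sex and day groups, ± SE) of the 10 genes (y axis) in 4 fits that treat the run of columns differently; no SE is drawn for Adm in the first run alone, where the difference was near 0. Kdr moved from 0.17 with the run as a block to 0.48 with the run taken within each treatment, and Vash1 from -0.33 to -0.16.

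Among days after the lesion, which follow the course from early inflammation to an established CNV, 1 of 60 member tests was called. In SCFA libraries Vegfa was higher at 14 dpl than at 3 dpl by 0.30 ± 0.09 (adjusted p = 0.0824), where 5.06% of all genes were called. The 8 libraries at 3 dpl ran from 71.23 to 101.9 CPM with a median of 94.19 CPM, and the 7 libraries at 14 dpl from 90.04 to 115.1 CPM with a median of 102.5 CPM. The groups overlapped, and 4 of the 8 libraries at 3 dpl but 1 of 7 at 14 dpl belonged to the second run, in which Vegfa was higher. The difference was 0.27 in the first run alone (adjusted p = 0.478) and 0.18 without a run term (adjusted p = 0.657). The call was lost on leaving out any of 9 of the 15 libraries compared (female SCFA 2 and 3 at 3 dpl, male SCFA 2 and 3 at 3 dpl, female SCFA 2 and 3 at 14 dpl and male SCFA 1, 2 and 3 at 14 dpl), with adjusted p from 0.115 to 0.186.

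In control libraries no member was called between days. The Vegfa medians were 87.13, 83.56 and 94.72 CPM at 3, 7 and 14 dpl, and the difference between 14 and 3 dpl was -0.05 ± 0.09. Hif1a in controls was lowest at 7 dpl, with a median of 418.8 CPM against 491.9 CPM at 3 dpl and 522.5 CPM at 14 dpl, and ranges that overlapped. Between 14 and 3 dpl in controls 0.0824% of all genes were called by edgeR, and between 14 and 7 dpl in SCFA libraries 0.0659%. Between 7 and 3 dpl in SCFA libraries edgeR called 0, with 1555 at an unadjusted p under 0.05, and DESeq2 called 8. Between neighbouring days in controls 0 of 18197 genes were called, with 1191 (7 against 3 dpl) and 1701 (14 against 7 dpl) at an unadjusted p under 0.05, and DESeq2 called 14 and 32.

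Males and females did not differ for any member under edgeR, in 40 tests of which 5 had an unadjusted p under 0.05. DESeq2 called 2 of these, Hif1a (-0.14, adjusted p = 0.0464) and Angpt2 (-0.32, adjusted p = 0.0884), both lower in males in the mean over the 6 treatment and day groups. With edgeR the same values were -0.13 ± 0.04 (adjusted p = 0.133) and -0.31 ± 0.12 (adjusted p = 0.167), in a comparison where 2.31% of all genes were called. edgeR called Hif1a without male control 1 at 7 dpl, male control 4 at 3 dpl or female SCFA 4 at 7 dpl (adjusted p down to 0.0651), and Angpt2 without female control 3 at 7 dpl (-0.37, adjusted p = 0.0723). Other single omissions gave edgeR adjusted p up to 0.221 for Hif1a and 0.317 for Angpt2. Among controls Vash1 read 5.38, 3.83 and 4.68 CPM in females at 3 dpl and 7.45, 7.14, 24.49 and 21.63 CPM in males, a log2 difference of 0.85 ± 0.29 with an unadjusted p of 0.00554 and an adjusted p of 0.932, and 2 of those 4 males but no female belonged to the second run. Between the control sexes 0.0495% of all genes were called at 3 dpl and 0.0275% at 7 dpl. Hif1a in controls at 14 dpl was lower in males without overlap, at 507.4, 420.8 and 415.1 CPM against 537.6, 583.8 and 584.7 CPM in females, a difference of -0.26 ± 0.12 (adjusted p = 0.250) in a comparison where 4.65% of genes were called. Of those females, 2 of 3 belonged to the second run and no male did.

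Whether the SCFA response differed between the sexes was tested as an interaction at each day. edgeR called 0 of 30 member tests and DESeq2 called 0, with 3 at an unadjusted p under 0.05 by each. All 3 were at 3 dpl, where Adm had the largest difference, -1.75 ± 0.70 (male minus female response, adjusted p = 0.308), followed by Egln3 at -1.02 ± 0.42 and Kdr at -0.75 ± 0.36. edgeR called none of all 18197 genes at any of the 3 days, with 2296, 1332 and 1822 at an unadjusted p under 0.05 at 3, 7 and 14 dpl, and DESeq2 called 39, 20 and 0.

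With terms for group and run taken out, Kdr, Flt1 and Tek rose and fell together across libraries. The run term was shared by both treatments, so a run difference that differs by treatment stays in these residuals. In female controls at 14 dpl the Kdr residual was -0.72 in the first run and 0.54 and 0.18 in the second. The part of this in the correlations was not tested. Pearson's r of the residuals of log2(CPM + 1) from group and run was 0.754 for Kdr and Flt1, 0.584 for Flt1 and Tek and 0.546 for Kdr and Tek (n = 43 libraries). Spearman's rho was 0.759, 0.560 and 0.458. The two-sided permutation p, adjusted over the 10 pairs computed, was 0.0001, 0.0002 and 0.000467 for r and 0.0001, 0.0008 and 0.00747 for rho, and the raw p for Kdr and Flt1 (1e-05) was the smallest that 100000 permutations can give. Without the 2 libraries farthest from the median of the first gene, r was 0.710, 0.550 and 0.482. Within the first run r was 0.731, 0.583 and 0.497, and within the second run 0.834, 0.599 and 0.641. The residuals of these libraries share whatever differs in the cell makeup and depth of a library. The permutations treated the 43 residuals as exchangeable, although terms for 12 groups and the run had been fitted first. The permutation p of all 10 pairs may therefore be too small.

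Pairs that included Vegfa gave lower or negative values. Vegfa and Hif1a had an r of 0.02 (adjusted permutation p = 0.891) and Vegfa and Kdr an r of -0.03 (adjusted permutation p = 0.891). Adm and Egln3 had an r of 0.429 (adjusted permutation p = 0.0101) and a rho of 0.341 (0.0506), and r was 0.448 without 2 libraries, 0.465 in the first run and 0.187 in the second. Vegfa was negatively related to Egln3 (r = -0.428, adjusted permutation p = 0.0111) and to Adm (r = -0.378, adjusted permutation p = 0.0173), but rho was -0.255 (0.140) and -0.353 (0.0506). Without female control replicates 2 and 3 at 7 dpl, the first of which held Y-linked transcripts, these r fell to -0.146 and -0.190. Both of those libraries belonged to the first run. Within the first run r was -0.518 for Vegfa and Egln3 and -0.354 for Vegfa and Adm, and within the second run it was 0.168 and -0.577, so the relation with Egln3 was not seen in the second run and that with Adm was negative in both. Angpt2 and Tek had an r of 0.396 (adjusted permutation p = 0.0135) and a rho of 0.257 (0.140), but r was 0.322 without 2 libraries, 0.499 in the first run and 0.0657 in the second. Angpt1 and Angpt2 had an r of 0.172 (adjusted permutation p = 0.340). By Pearson's r 7 of the 10 pairs had an adjusted permutation p under 0.1, and 5 did with residuals from group only, where Vegfa with Egln3 (-0.264) and with Adm (-0.266) no longer passed.

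**Figure D4:**
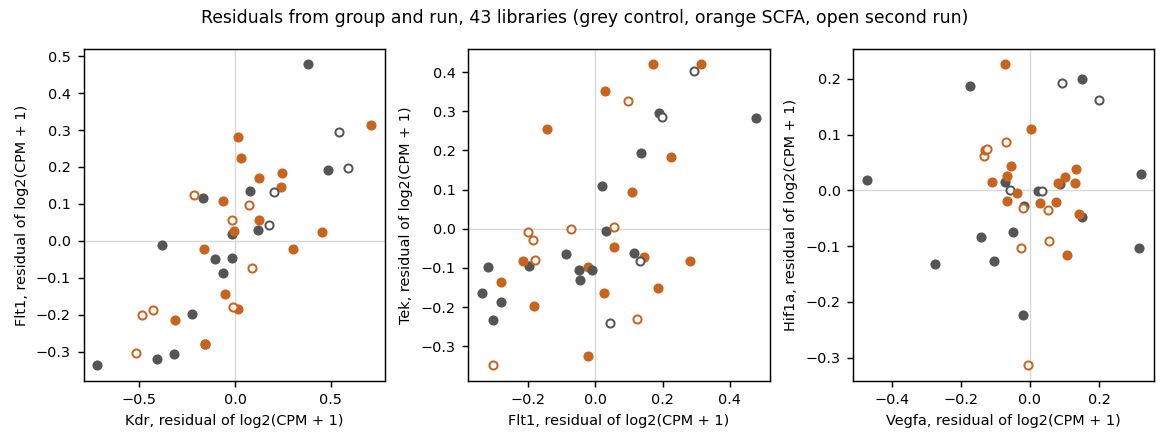
Residuals of log2(CPM + 1) from group and run of columns for 3 pairs of genes; each point is 1 of 43 libraries, grey for control and orange for SCFA, and open for the second run. Kdr with Flt1 (r = 0.754) and Flt1 with Tek (r = 0.584) form rising clouds, whereas Vegfa with Hif1a (r = 0.02) does not.

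The genes whose levels followed each member most closely were ranked by Pearson's r of log2(CPM + 1) centred within each run, over the 43 libraries and given as a description. For Kdr they were Plpp3 (0.855), Slc1a3 (0.851) and Lasp1 (0.837), and for Flt1 Kcnj10 (0.858), Gpalpp1 (0.846) and Abca8a (0.839). Slc1a3 is on the list of Müller glia and astrocyte markers used here. No other marker of that list, and no listed endothelial marker, was among the 3 genes closest to Kdr or Flt1. Kcnj10 is a potassium channel known from Müller glia, but it is not on that list. The part of glial RNA in these values was not tested. For Tek they were Erap1 (0.714), Aph1b (0.711) and Slitrk5 (0.674). Vegfa was followed by Akap13 (0.796), Hook1 (0.793) and Leng8 (0.786), Hif1a by Homer1 (0.905), Kpna1 (0.904) and Fam126b (0.899), and Vash1 by Rgs9 (0.905), Prrc2b (0.883) and Cdc42bpb (0.873). Angpt2 was followed by Gabra3 (0.759), Atxn10 (0.755) and Omg (0.748), and Angpt1 by Echdc1 (0.626), Samd4 (0.595) and Gng2 (0.589). Egln3 was followed by Prkcq (0.759), Tkt (0.728) and App (0.710), and Adm by Smap2 (0.640), Htra1 (0.635) and Rcn1 (0.624).

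Other genes of the same pathways were read in the mean SCFA comparison, where 34.7% of all genes were called and the median log2 fold change was 0.003. Of all 18197 genes tested, 3217 were called higher and 3100 lower with SCFA. Of the 7 other VEGF ligands and receptors, 0 were higher and 2 lower, with a median of -0.02. These were Vegfb, a VEGF ligand of low angiogenic activity (-0.15 ± 0.06, adjusted p = 0.0391), and Pgf, placental growth factor, a ligand of VEGFR1 (-0.50 ± 0.18, adjusted p = 0.0302). Of the 8 Tie partners, adrenomedullin receptor genes and vasohibin partners, 0 were higher and 2 lower, with a median of -0.09. These were Ptprb, the phosphatase VE-PTP that dampens Tie2 (-0.28 ± 0.09, adjusted p = 0.0147), and Vash2, vasohibin 2 (-0.28 ± 0.08, adjusted p = 0.00975).

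Of the 8 HIF subunits and oxygen sensors, 0 were higher and 3 lower, with a median of -0.03. Egln2, a prolyl hydroxylase related to Egln3, differed most (-0.51 ± 0.08, adjusted p = 1.65e-05), and it was also lower in males at 7 dpl (-0.66 ± 0.19, adjusted p = 0.0144) and at 14 dpl (-0.96 ± 0.21, adjusted p = 0.0276). Hif1an, the asparagine hydroxylase that limits HIF activity (-0.13 ± 0.05, adjusted p = 0.0520), and Arnt2, a dimer partner of HIF (-0.15 ± 0.07, adjusted p = 0.0957), were the others. Of the 24 tested among 25 listed hypoxia targets, 0 were higher and 6 lower, with a median of -0.06. Those of smallest adjusted p were Tpi1, triosephosphate isomerase of glycolysis (-0.37 ± 0.08, adjusted p = 0.00104), Kdm3a, a histone demethylase (-0.25 ± 0.06, adjusted p = 0.00277), Bhlhe40, a transcriptional repressor (-0.15 ± 0.06, adjusted p = 0.0603), and Eno1, the glycolytic enolase (-0.15 ± 0.06, adjusted p = 0.0631). Between 14 and 3 dpl in controls, edgeR called none of the genes in these 4 lists. The values in these lists come from the fit with the run as a block, and the 12 endothelial markers, fitted the same way, had 0 higher and 4 lower with SCFA. Their summed level ran from 70.58 to 129.7 CPM in first-run controls, 102.4 to 126.7 CPM in second-run controls, 69.45 to 119.5 CPM in first-run SCFA libraries and 89.64 to 122.8 CPM in second-run SCFA libraries, and the part of endothelial RNA in the values of Kdr, Flt1 and Tek was not tested.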

How the data were processed

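Bulk RNA of mouse retina was sequenced (NovaSeq 6000, paired 150 base reads). The authors deposited 1 table of raw read counts per gene (54532 genes, 43 libraries). Per the labels, their processing notes name mm10 and DESeq2, and the aligner and counter are not given in the sources used here. Gene symbols came from GENCODE M21, which held 54495 of the identifiers. The members and lists were chosen with earlier results of these data known.

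Counts were scaled by TMM and filtered with filterByExpr, which left 18197 genes. edgeR 4.0.16 (R 4.3.3) fitted its quasi-likelihood model with group and run as terms, and p-values were adjusted by Benjamini-Hochberg over all genes, with the study's threshold of 0.1. All 10 members and every comparison are reported; the 3 genes with established names most like each member by Pearson's r are named, and, of each pathway list, at most 4 genes called in the mean SCFA comparison or between 14 and 3 dpl in controls, by smallest adjusted p. DESeq2 1.42.0, other scalings, filters and left-out libraries were alternatives. Residual correlations used 100000 permutations (scipy 1.17.1). The fits were tested on simulated data.

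Library totals of 14826957 to 21507527 put 3 counts at 0.139 to 0.202 CPM. Libraries of a group are pools of different animals, but shared litters or preparation are not labelled, so p-values measure only the spread between these libraries. The highest correlation between libraries was 0.9956, with 0 identical pairs.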

Additional observations from a re-analysis of the deposited data

Results flagged for a closer look

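In female SCFA libraries at 14 dpl, Flt1 in replicate 1 read 67.56 CPM, below the other libraries of the group (82.79 to 85.11 CPM, n = 4), with a gap of 0.868 of the range against a critical value of 0.829 in Dixon's test. In male SCFA libraries at 7 dpl, Hif1a in replicate 4, a second-run library, read 566.9 CPM, above the others (483.7 to 499.9 CPM, n = 5), with a gap of 0.805 against 0.710. These were 2 of 50 sets of a gene and a group tested, and chance gives about 1 in 20. The difference between the second and the first run was smaller in SCFA than in control libraries by -1.275 (log2) for Kdr and -0.5526 for Flt1, tested as a difference in edgeR (adjusted p = 0.00135 and 0.0394), in a fit chosen after the data were seen.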

How the results depend on the processing

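Of the 70 SCFA tests of members, 5 were called, against 8 in the first run alone, 11 with the run taken within each treatment, 3 without the control libraries with Y-linked or myelin transcripts (3 libraries), 3 without all 5 libraries that stood apart, 3 at an adjusted p under 0.05 and 0 with a log2 fold change over 1 as well, and 2 to 7 on leaving out 1 library. The run within each treatment and the omission of 3 or 5 libraries were chosen after the data were seen. At 7 and 14 dpl 2 were called, against 8 with the libraries of the study's lists. Of 60 day tests 1 was called, against 0 without a run term, 0 with the replicate number as a block, 0 in the first run alone, 2 without the 5 libraries, 0 at an adjusted p under 0.05, 0 with the fold limit and 0 to 1 on leaving out 1 library. Of 40 sex tests 0 were called, against 1 without a filter, 2 by DESeq2, 1 with only the libraries compared and 0 to 1 on leaving out 1 library. Of 30 interaction tests 0 were called, against 1 without a filter (Kdr at 3 dpl). For the run, 6 members were called, against 3 within SCFA libraries. Kdr between control sexes at 14 dpl turned from -0.13 to 0.70 with only the libraries compared, where 2 of 3 females were second-run libraries. The shares of all genes called in these settings are not given beside the counts. The counts therefore describe the settings and are not a result about the members. The causes were not tested.

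Replicate numbers did not pair libraries: same-numbered libraries had a mean correlation of 0.006 in their deviations from group means (lowest -0.309 over 209 pairs), and 5 of 43 libraries correlated best with their own number. With the replicate block, Vegfa at 14 against 3 dpl in SCFA libraries was 0.31 (edgeR adjusted p = 0.162), and 6 SCFA tests were called. Depth limits Adm and Angpt1 most, with as few as 2 and 5 counts.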
